A study of Homo sapiens with 8 samples.

Results

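The type I interferon-stimulated genes described here are 38 genes named by symbol, taken as all rows of the deposited expression table that carry one of these symbols, out of 17649 gene symbols in all. The table covers MDA-MB-231, an estrogen receptor-negative human breast cancer cell line with mesenchymal traits, in 4 control libraries and 4 libraries from cells exposed for 48 hours to 1 µM carboxymethyllysine (CML), an advanced glycation end product that forms when sugars react with lysine. Control cells received PBS, and both groups were kept in medium with 5 mM glucose. The comparison asks whether expression differed after exposure to this glycation product. All libraries come from 1 cell line, and the labels do not say that the replicates were separate cultures, so that p-values measure the spread between these libraries, which may be technical. In a bulk RNA sample, fewer cells that express a gene cannot be told apart from less RNA per cell.

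Type I interferons bind a receptor on the cell surface whose kinases activate a transcription factor complex containing STAT2 and IRF9. The complex binds a short DNA motif, the interferon-stimulated response element (ISRE), upstream of the genes it turns on. Their products sense viral RNA, block its translation, degrade it, or tag proteins with the ubiquitin-like ISG15. Tumor cells often express these genes at a basal level without added interferon.

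The cells carried the genes of the labelled line. VIM and AXL were at mean levels of 4068 and 1186 CPM (read counts scaled to the size of the library) in the control libraries, CDH1 stayed between 0.311 and 0.954 CPM and the leukocyte gene PTPRC between 0.116 and 0.650 CPM. Not all markers of other cell types were low: the epithelial genes ERBB2 and EPCAM had control means of 49.5 and 14.2 CPM, and CD68, a lysosomal gene used as a macrophage marker, had means of 172 CPM in control and 166 CPM in CML libraries. The libraries held an estimated 16161801 to 18954732 reads, so that 1 read was worth 0.0535 to 0.0622 CPM. Both libraries numbered 4 stood apart: across 12928 genes, their deviation from the mean of the 8 libraries fell with the GC content of the transcript (Spearman's rho of -0.531 for the control and -0.527 for the CML library). Control replicate 1 deviated about as far the other way, with a rho of 0.502, and the other libraries had values from 0.130 to 0.222.

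Upstream sequences of members that the results turn on are shown with ISRE letters in capitals, where the ISRE was searched as GAAANNGAAA on either strand (TTTCNNTTTC on the other). The stretches are 5′ to 3′ on the strand of the gene, end at the base before a RefSeq start site and are on GRCh38.p14. They are given for STAT2 as the called member and ISG20 as the one with the highest fitted difference, for IFIT1, IFIT3, IFIT5 and ISG15 as core members, and for LGALS3BP as the most abundant one.
STAT2 (chr12:56360108-56360227, minus strand): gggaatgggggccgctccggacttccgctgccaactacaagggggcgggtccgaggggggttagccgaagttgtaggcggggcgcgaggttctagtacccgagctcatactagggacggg
ISG20 (chr15:88638896-88639015, plus strand): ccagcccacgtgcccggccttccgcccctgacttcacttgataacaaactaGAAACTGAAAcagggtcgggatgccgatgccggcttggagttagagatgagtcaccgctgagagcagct
IFIT1 (chr10:89392493-89392622, plus strand): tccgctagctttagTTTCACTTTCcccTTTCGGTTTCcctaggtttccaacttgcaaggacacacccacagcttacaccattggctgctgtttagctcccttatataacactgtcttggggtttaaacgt
IFIT3 (chr10:89327832-89327996, plus strand): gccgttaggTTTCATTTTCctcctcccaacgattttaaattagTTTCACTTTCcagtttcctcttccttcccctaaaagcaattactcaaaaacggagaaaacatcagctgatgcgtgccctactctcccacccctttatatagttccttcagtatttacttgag
IFIT5 (chr10:89414508-89414567, plus strand): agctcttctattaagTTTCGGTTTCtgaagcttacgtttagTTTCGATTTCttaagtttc
ISG15 (chr1:1013367-1013496, plus strand): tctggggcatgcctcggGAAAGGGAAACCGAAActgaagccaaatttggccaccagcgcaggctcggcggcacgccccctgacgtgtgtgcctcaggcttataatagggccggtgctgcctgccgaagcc
LGALS3BP (chr17:78979924-78980003, minus strand): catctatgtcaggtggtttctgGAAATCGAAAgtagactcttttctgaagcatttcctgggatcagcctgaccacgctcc

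Only matches that lie wholly before the start site are in capitals. The capitals in ISG15 are 2 matches that overlap, and IFIT1, IFIT3 and IFIT5 each show 2 separate ones. A further match of IFIT5, at chr10:89414564-89414573, runs across the start site, and its first letters end the stretch in lower case. IFIT3 has another RefSeq start site, whose upstream stretch holds 2 matches and is not shown. RefSeq promoter windows, which run from 250 bases before to 50 bases after a start site, were found for 32 of the 38 members; IFIT2, USP18, DHX58, OAS2, OASL and IRF7 had none. ISRE letters occurred in at least 1 window of 21 of these 32 (65.6%), compared with 3.57% of all 35116 windows and 4.38% of all 27305 genes with a window. The window of STAT2 held none. Letters of the gamma-activated site, TTCNNNGAA, occurred in 9 of the 32 members (28.1%), compared with 7.66% of all windows and 9.38% of all genes with a window. The members with this match included IRF1, IRF9 and BST2. PARP9 and DTX3L, which lie head to head, share 1 ISRE match at chr3:122564332-122564341. A match of letters is a description of the sequence and not a measured binding site.

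The 38 members were expressed across a wide range. There were 6 members with a mean of at least 50 CPM over the 8 libraries, 22 between 10 and 50 CPM, 7 between 1 and 10 CPM, and 3 (USP18, RSAD2 and CMPK2) under 1 CPM. The median of the members' means was 14.6 CPM. The plot of all members by library shows the separation between genes as far larger than the separation between groups.

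**Figure D1:**
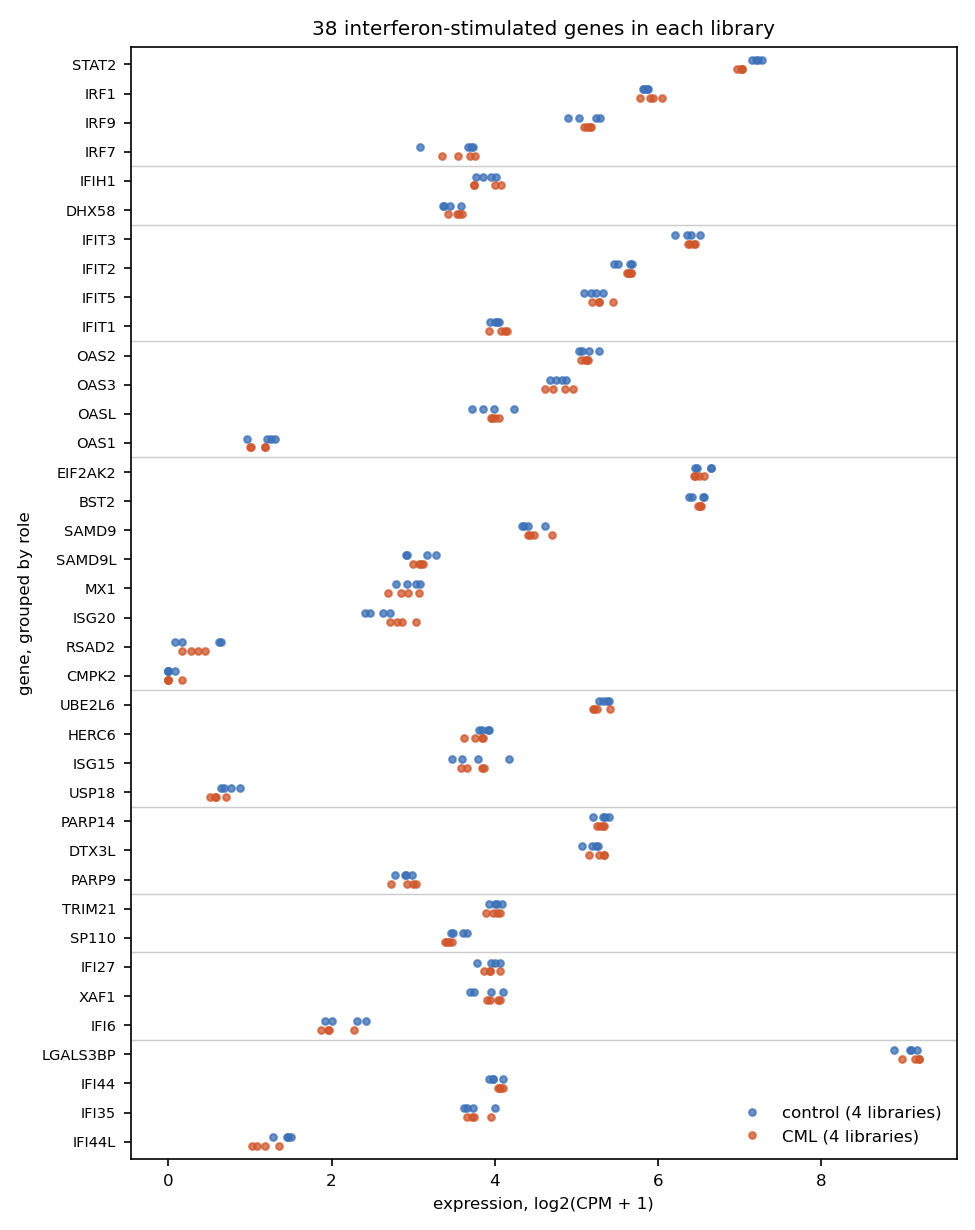
Expression of the 38 interferon-stimulated genes in each of the 4 control and 4 CML libraries, as log2(CPM + 1) on the x axis, with genes grouped by role between the grey lines and ordered by mean within a role. Each point is 1 library. Control and CML points overlap for 37 of 38 genes, and STAT2 in the top row is the exception.

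Of the 38 members, 1 was called at an adjusted p under 0.3 (limma on log2(CPM + 1), Benjamini-Hochberg adjustment over all genes, the threshold used throughout), and it was STAT2, which was lower with CML. This is 2.63% of the members, where 0.895% of all 17649 genes were called in either direction and 0.221% were called as lower. No member had a limma adjusted p under 0.05, nor did any of the 17649 genes. When the fit was limited to the 13047 genes that averaged 1 CPM or more, the limma adjusted p of STAT2 was 0.0356. In that fit 36 genes were under 0.05, STAT2 among them. At an unadjusted p under 0.05, 4 members stood out (STAT2, IFI44L, ISG20 and USP18), which is 10.5% of the members against 7.66% of all genes. The 4 CML values lay entirely outside the range of the 4 control values for 1 of 38 members (STAT2), against 3.78% of all genes.

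The direction of the members was mixed. The fitted difference was above 0 for 22 and below 0 for 16, so that 57.9% were higher, compared with 55.9% of all genes not at 0 throughout. The median log2 difference of the members was 0.0101, beside 0.00656 for all genes. For every member, the 95% interval of the difference on the log2(CPM + 1) scale stayed within a 1.5-fold change in either direction, and for 25 members within 1.2-fold. That scale understates changes at low CPM, most of all near or under 1 CPM, and the fold limits hold on that scale only. In CPM, the group mean of ISG20 was 27.1% higher with CML, and those of IFI44L and USP18 were 26.0% and 24.6% lower. The interval held 0 for 34 members.

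**Figure D2:**
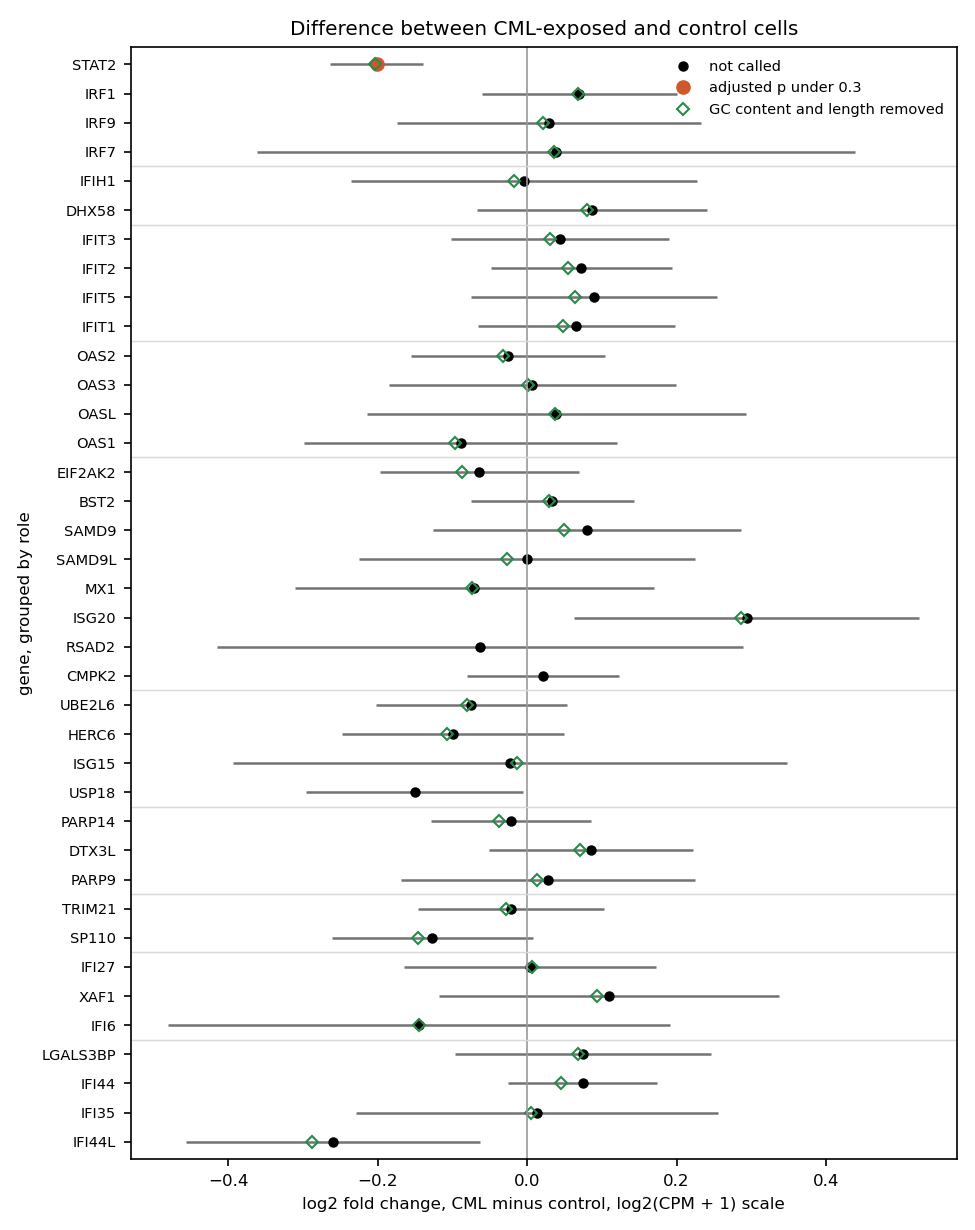
Log2 difference of CML minus control on the log2(CPM + 1) scale for each member, grouped by role, with the limma 95% interval as a bar; the orange point marks an adjusted p under 0.3 and green diamonds show the difference after the relation with GC content and length was removed from each library (35 members). STAT2 at -0.20 is the called member, and 34 of the 38 bars cross 0.

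The transcription factors of the pathway held the called gene. STAT2 (ENSG00000170581.14, chr12:56341597-56360107, minus strand), the subunit that carries the activation domain of the interferon-activated complex, was at 148, 141, 154 and 146 CPM in control replicates 1 to 4 and at 129, 125, 129 and 129 CPM in CML replicates 1 to 4. All CML libraries lay below all control libraries, with a gap of 12.3 CPM between the closest ones. The group means were 147 ± 5.04 and 128 ± 2.17 CPM (SD, n = 4 each), a decrease by 13.1%, and the log2 difference was -0.20 (SE 0.026, 95% interval -0.264 to -0.139, limma adjusted p = 0.0935). Ordered by p, STAT2 was at rank 23 of all genes. The call was lost without CML replicate 2, where the difference was -0.19 and the limma adjusted p was 0.306, in a fit that called 20 genes in all. The unadjusted limma p of STAT2 was 0.000515 there and 0.000547 without CML replicate 4, where the call was kept. With the relation to GC content and length removed, the difference was -0.20 (limma adjusted p = 0.000823), and without both libraries numbered 4 it was -0.21 (limma adjusted p = 0.255).

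IRF9, the DNA-binding partner of STAT2, did not pass the test. It was at 37.98, 31.8, 36.6 and 28.8 CPM in the control libraries and at 35.3, 33.05, 34.1 and 34.9 CPM in the CML libraries, which lie inside the control range. The log2 difference of 0.03 had an interval from -0.174 to 0.233. IRF9 shares exons with a readthrough gene on the same strand and had no library with a whole number of estimated reads, so that its values may include reads divided between genes.

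IRF1, a factor that is itself induced by interferons, was at 57.8, 55.1, 57.4 and 55.8 CPM in the control libraries and at 58.5, 60.2, 65.4 and 53.9 CPM in the CML libraries. The groups overlapped, because CML replicate 4 was the lowest of all 8 libraries while the other CML libraries were above the controls (log2 difference 0.07, limma adjusted p = 0.890). IRF7, which amplifies interferon production, was at 12.0, 11.8, 12.3 and 7.47 CPM in control and at 11.9, 10.7, 12.5 and 9.21 CPM in CML libraries. In both groups the library numbered 4 was the lowest, and the interval of the log2 difference, -0.361 to 0.438, was among the widest of the members. Without control replicate 4, the difference of IRF7 turned from 0.04 to -0.12.

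**Figure D3:**
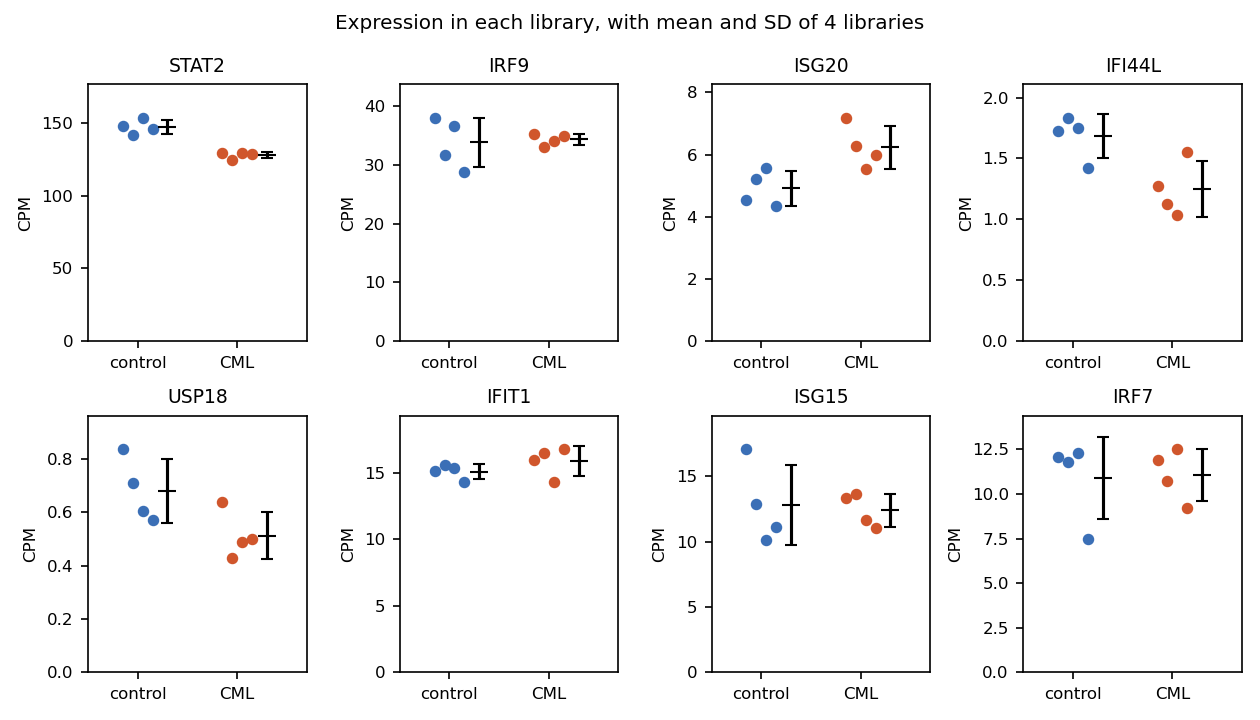
Expression in CPM (y axis, starting at 0) of 8 members in the 4 control libraries (blue) and 4 CML libraries (orange), with the mean and SD of each group in black. The groups of STAT2 are separate (141 to 154 against 125 to 129 CPM), those of ISG20 meet at 5.56 and 5.55 CPM, and those of IRF9, IFIT1, ISG15 and IRF7 overlap.

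The cytosolic sensors of viral RNA did not pass the test. IFIH1, which encodes the helicase MDA5, had group means of 13.9 ± 1.11 and 14.0 ± 1.81 CPM (SD, n = 4 each). DHX58, which encodes the regulatory helicase LGP2, had means of 9.93 ± 0.771 and 10.6 ± 0.591 CPM (SD, n = 4 each). The smaller adjusted p of the pair was 0.873 by limma.

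Some IFIT proteins, such as IFIT1, bind viral RNA that lacks a host cap and hold back its translation. All 4 IFIT genes had a fitted difference above 0, from 0.04 to 0.09 on the log2 scale, and none was called (smallest limma adjusted p = 0.860). IFIT1 was at 15.1, 15.5, 15.4 and 14.3 CPM in the control libraries and at 15.9, 16.5, 14.3 and 16.7 CPM in the CML libraries. Its CML values in replicates 1, 2 and 4 lay above the controls and CML replicate 3 was the lowest of all 8. IFIT3 was at 73.2, 83.4, 80.8 and 90.6 CPM in control and at 81.8, 86.1, 86.9 and 82.6 CPM in CML libraries, so that the CML values lay inside the control range; without control replicate 1 the sign of its difference turned. The 4 genes lie side by side on chromosome 10, and IFIT2 and IFIT3 overlap LIPA, a gene on the opposite strand with a mean of 153.773 CPM; whether the libraries kept the strand is not given in the sources used here. The same holds for IRF1, IRF9, OAS1, EIF2AK2, MX1, RSAD2, CMPK2, ISG15, PARP9, DTX3L, SP110 and XAF1, whose exons overlap an annotated gene, lncRNA or pseudogene on the other strand. IFIT2 also overlaps an lncRNA on the same strand. It had a whole number of estimated reads in 3 of the 8 libraries, so that its values may include divided reads.

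The oligoadenylate synthetases make a messenger that activates RNase L, and OASL is a relative without this activity. Their fitted differences ran from -0.09 (OAS1) to 0.04 (OASL), 2 above and 2 below 0, with a smallest limma adjusted p of 0.905. OAS1 was at 1.31, 0.946, 1.39 and 1.48 CPM in control and at 1.27, 1.02, 1.28 and 0.996 CPM in CML libraries, from 16 to 26 estimated reads. The groups overlapped.

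The other antiviral effectors included the member with the largest increase in the fit. ISG20 (ENSG00000172183.15, chr15:88635632-88656483, plus strand), an exonuclease that degrades single-stranded RNA, was at 4.53, 5.20, 5.56 and 4.33 CPM in control and at 7.18, 6.26, 5.55 and 5.97 CPM in CML libraries. The ranges met, with CML replicate 3 just below control replicate 3. The means were 4.91 ± 0.575 and 6.24 ± 0.691 CPM (SD, n = 4 each), and the log2 difference was 0.29 (SE 0.098), with an adjusted p of 0.512 by limma that does not pass the threshold. Among the alternatives, it was called with the relation to GC content and length removed (0.29, limma adjusted p = 0.260).

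MX1, a dynamin-like GTPase that traps viral components, was at 7.21, 6.56, 7.50 and 5.93 CPM in control and at 7.41, 6.63, 5.48 and 6.22 CPM in CML libraries, with a difference of -0.07 and overlapping groups. EIF2AK2, the kinase PKR that stops translation on double-stranded RNA, was at 86.3, 87.8, 98.9 and 99.2 CPM in control and at 86.0, 86.4, 89.65 and 93.5 CPM in CML libraries. BST2, which tethers budding virus to the cell surface, was at 93.0, 84.4, 93.9 and 82.2 CPM in control and at 90.3, 88.9, 91.5 and 90.7 CPM in CML libraries. The CML values of BST2 fell inside its control range, and those of EIF2AK2 reached slightly below it. EIF2AK2 had a difference of -0.06 that was not called, and of -0.09 (limma adjusted p = 0.298) with the relation to GC content and length removed.

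SAMD9 and SAMD9L restrict poxviruses and had differences of 0.08 and 0.00, neither called. RSAD2, which encodes viperin, and CMPK2, its head-to-head neighbour, were barely detected: RSAD2 had 1 to 10 estimated reads in a library, and CMPK2 was listed at 0 in 6 libraries and had at most 2 reads in the others. For CMPK2 no fold change is given. The values of both genes are too low for a comparison between the groups.

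The members of ISG15 conjugation are ISG15, USP18, UBE2L6 and HERC6. All 4 had fitted differences below 0, from -0.15 to -0.02 on the log2 scale, and none was called (smallest limma adjusted p = 0.626). HERC5, the main human ISG15 ligase, is not a member and was added here after its values were seen; it was at 34.96 ± 1.60 and 36.3 ± 2.46 CPM (SD, n = 4 each), with a difference of 0.05 (limma adjusted p = 0.910). ISG15 itself was at 17.1, 12.9, 10.2 and 11.1 CPM in control and at 13.3, 13.6, 11.6 and 11.01 CPM in CML libraries. Control replicate 1 was the highest and control replicate 3 the lowest, so that the CML values lay inside the control range, and without control replicate 1 the difference turned to 0.11. USP18, the protease that removes ISG15 and also restrains the receptor, was at 0.835, 0.709, 0.605 and 0.570 CPM in control and at 0.637, 0.428, 0.488 and 0.498 CPM in CML libraries, from 8 to 14 reads a library. Its groups overlapped through CML replicate 1, and the log2 difference was -0.15 (SE 0.062, limma adjusted p = 0.626).

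PARP9, DTX3L and PARP14 are linked to ADP-ribosylation and the ubiquitination of histones and viral proteins. Their differences ran from -0.02 (PARP14) to 0.09 (DTX3L), with a smallest limma adjusted p of 0.841. Among the nuclear body protein SP110 and the antibody receptor TRIM21, SP110 was lower with means of 10.8 ± 0.799 and 9.78 ± 0.257 CPM (SD, n = 4 each) and a difference of -0.13 whose interval, -0.261 to 0.00745, held 0. The genes with roles in cell death, IFI6, IFI27 and XAF1, had differences from -0.14 to 0.11 and were not called.

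Among the remaining members, IFI44L (ENSG00000137959.16, chr1:78620448-78646145, plus strand) had the most negative difference. It was at 1.73, 1.83, 1.75 and 1.42 CPM in control and at 1.27, 1.12, 1.04 and 1.56 CPM in CML libraries, from 17 to 31 reads a library. In each group the library numbered 4 crossed into the range of the other group. The log2 difference was -0.26 (SE 0.083, limma adjusted p = 0.492); without both libraries numbered 4 it was -0.37 and was called (limma adjusted p = 0.195), one of 2 members called there, against 1.82% of all genes. Without control replicate 4 alone it was -0.31 and was also called (limma adjusted p = 0.282), in a fit that called 3.91% of all genes. IFI44L was not called on leaving out any other library alone. Its neighbour IFI44, 3644 bases away, had means of 14.96 ± 0.810 and 15.8 ± 0.270 CPM (SD, n = 4 each) and a difference of 0.07.

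LGALS3BP, a secreted glycoprotein that binds galectins, was the most abundant member. It was at 574, 546, 542 and 474 CPM in control and at 567, 588, 587 and 506 CPM in CML libraries. The library numbered 4 was the lowest in both groups. The difference was 0.07 (limma adjusted p = 0.902), and after the relation with GC content and length was removed it had the same size and was called (0.07, limma adjusted p = 0.161).

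GC content moved with the members as with the other genes. Over the 35 members with a mean of at least 1 CPM, the deviation of a library from the mean of all 8 had a Pearson's r with GC content of -0.697 in control replicate 4, -0.715 in CML replicate 4 and 0.545 in control replicate 1; members share these libraries, and the values are a description. Both libraries numbered 4 were the highest of all for IFIT5 (37.6% GC) and SAMD9 (36.0%) and the lowest of all for IRF7 (66.6%) and LGALS3BP (61.2%). With the relation removed, 4 of the 35 members tested were called (STAT2, LGALS3BP, EIF2AK2 and ISG20), against 6.78% of the 12928 genes tested in that way.

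**Figure D4:**
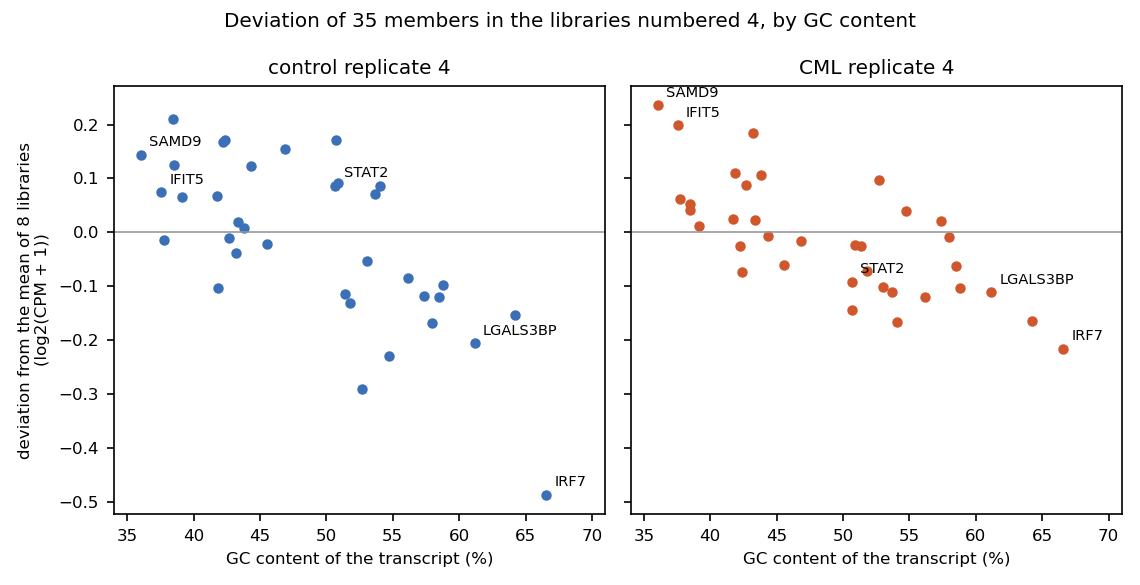
Deviation of each of 35 members from its mean over the 8 libraries, in log2(CPM + 1) (y axis), by the GC content of its transcript in percent (x axis), in control replicate 4 (left) and CML replicate 4 (right). Each point is 1 gene. Deviations tend to fall with GC content, and the AT-rich SAMD9 is above 0 and the GC-rich IRF7 below 0 in both libraries. Not every member follows this: IFI44L (37.7% GC) is below 0 in control replicate 4 and BST2 (57.3% GC) above 0 in CML replicate 4.

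Levels per transcript length set neighbouring members apart. In CPM per kb of the canonical transcript, LGALS3BP was at 249, BST2 at 89.3, IFIT3 at 34.8, UBE2L6 at 31.7 and STAT2 at 31.2 over the 8 libraries, whereas IFI44L was at 0.252 and RSAD2 at 0.0837. In the IFIT cluster, the control level per kb was 34.3 ± 3.00 for IFIT3 and 3.504 ± 0.127 for IFIT1 (SD, n = 4 each), a 9.79-fold separation. In the OAS cluster, it was 0.786 ± 0.144 for OAS1 and 4.02 ± 0.238 for OAS3, whose loci are 5255 bases apart. The widest separation among neighbours with reads in every library was that of IFI44L at 0.289 ± 0.0307 and IFI44 at 8.90 ± 0.481 CPM per kb. These differences between genes are far outside the spread of the libraries, but isoforms other than the canonical one would change the length.

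**Figure D5:**
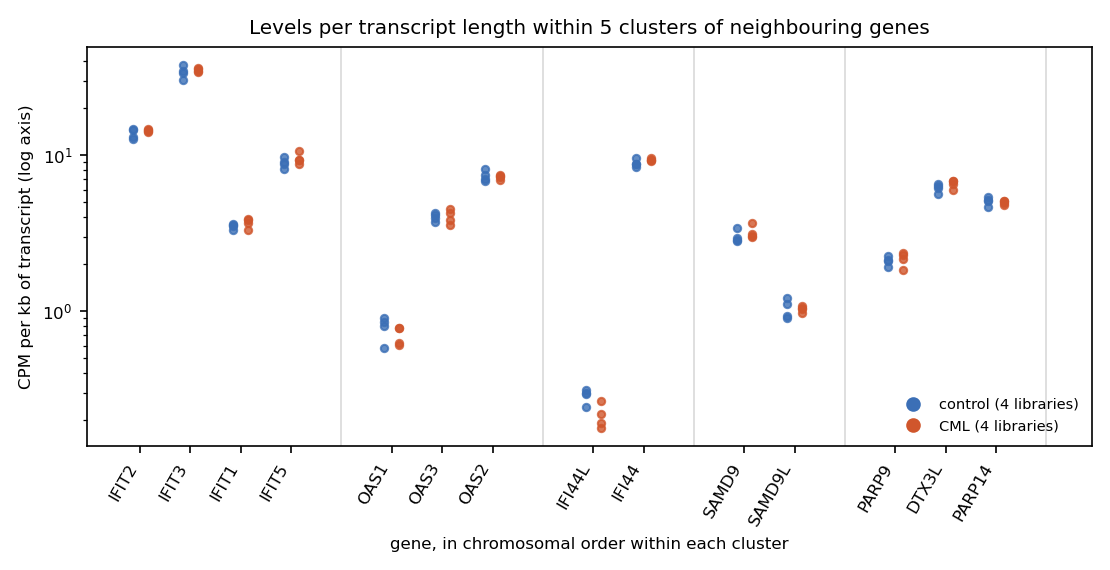
Levels of 14 members in 5 clusters of neighbouring genes, as CPM per kb of the canonical transcript on a log axis, with 1 point for each of the 4 control (blue) and 4 CML (orange) libraries. Within a cluster the genes separate by more than the libraries do, as for IFI44L (0.252) and IFI44 (9.14), whereas control and CML points overlap for each gene.

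Of 89 other genes of the pathway, 78 were in the table, and 1 was called (CCL5, higher), where 0.895% of all genes were called. At an unadjusted p under 0.05, 4 were higher and 1 was lower, beside the 7.66% of all genes given above. CCL5, a chemokine, had 2 to 3 estimated reads in the control libraries and 4 to 5 in the CML libraries (log2 difference 0.14, limma adjusted p = 0.195), a count at which 1 read changes the value markedly. The call was lost without control replicate 2 and without any 1 of the CML libraries (limma adjusted p = 0.338 to 0.453). Among interferons, receptors and kinases, 9 of 17 genes were in the table, all of them receptors or kinases, and 0 were called. IFNGR2, a chain of the interferon gamma receptor, had group means of 58.25 ± 2.79 and 63.3 ± 0.982 CPM (SD, n = 4 each). Its groups were separate, and its limma adjusted p was 0.435, and 0.197 without control replicate 4.

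The genes needed to respond to interferon were present. JAK1, TYK2 and IFNAR1, the kinases and a chain of the type I receptor, had means of 190.3, 107 and 94.3 CPM over the 8 libraries. The interferon genes themselves, such as IFNB1, were not analysed here. Among the sensors, 14 of 16 genes were in the table, IFI16, TRIM25 and MAVS were the highest at 336, 301 and 204 CPM, and AIM2 was at 1.67 ± 0.229 and 1.11 ± 0.386 CPM (SD, n = 4 each; log2 difference -0.35, limma adjusted p = 0.595). Of the 16 negative regulators 0 were called, with PTPN11, ADAR and PTPN1 highest at 422, 255 and 97.0 CPM; PTPN1, a phosphatase that acts on the receptor kinases, had a log2 difference of 0.08 (limma adjusted p = 0.574). Of 39 further interferon-stimulated genes measured, CCL5 was the 1 called; IFITM3, SLFN5 and RNF114 were the highest at 237, 163 and 84.3 CPM, and TRIM14 had a difference of 0.15 (limma adjusted p = 0.650). IFITM3 has near-identical relatives with which it can share reads, so that its value is uncertain.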

How the data were processed

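Per the labels, the deposited values were made with edgeR on the hg38 build, and the CPM values that the authors deposited have columns that sum to 986730 to 1014124. The aligner and the counting tool for this experiment are not given in the sources used here. Values fell on steps of 1 read, and 84.6% to 85.7% of values above 0 in a library were whole reads within 0.01, so no count test was run. Rows with the same symbol were averaged (32 symbols), which left 17649 genes, and the 4 control and 4 CML libraries were compared on log2(CPM + 1) in R 4.3.3 by limma (version 3.58.1), using its variance trend, Benjamini-Hochberg adjustment over all genes, a threshold of 0.3 and no low-value filter. A limma fit of the same form was tested on simulated counts that held no relation with GC content. Transcript length, GC content and overlaps came from GENCODE release 44 on GRCh37, and coordinates and promoter windows from RefSeq on GRCh38.p14.

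The members and lists were chosen with earlier results of these data known. Values are given in every library for IFIT1, ISG15, MX1, OAS1, STAT2, IRF9, IRF1 and IRF7, for members with an unadjusted p under 0.05 and for the 6 members with the highest mean. Of the pathway lists, the genes past either threshold and the 3 highest in each list are named. Alternatives changed the pseudocount, a minimum mean of 1 CPM, scaling, the trend, row averaging, a replicate block, GC content and length, and left out each library in turn. The exclusion of both libraries numbered 4 was chosen after seeing the data.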

Additional observations from a re-analysis of the deposited data

Results flagged for a closer look

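In groups of 4 libraries, a library was marked where its gap to the nearest other library made up most of the range of its group. Of 78 groups tested, 5 were marked, and chance marks about 1 in 20 groups, here 3.9. CML replicate 2 was the lowest of its group for STAT2 at 124.66 CPM, next to 3 libraries near 129 CPM. Control replicate 4 was the lowest for IRF7 at 7.47 CPM. CMPK2 was at 0.0570 CPM in control replicate 4 and at 0.122 CPM in CML replicate 3, with the other libraries of each group listed at 0. Any group of that form is marked, so that the chance rate does not cover the marks of CMPK2. The estimated reads of control replicate 4, 17729517, also stood apart from those of its group. The causes were not tested.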

How the results depend on the processing

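The values of OAS1, IFI44L, USP18, RSAD2, CMPK2, AIM2 and CCL5 rest on few reads, and the cause of each move given here was not tested. Over 978 values of 55 named genes under the alternatives, 878 kept their direction and their side of the threshold, 74 changed sign, 9 lost a call and 17 gained one. The largest difference that changed sign was 0.0632 in size. STAT2 stayed lower in all alternatives run.

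The number of called members, 1, became 4 with GC content and length removed, also with the replicate block added, 2 without both libraries numbered 4, and 0 to 2 on leaving out 1 library (0 without CML replicate 2, 2 without control replicate 4). The share of all genes called was 0.895% in the reported fit and 1.82% without both libraries numbered 4. It was 6.78% with GC content and length removed, 7.37% with the block added to that, and 0.113% to 3.91% on leaving out 1 library. With a minimum mean of 1 CPM it was 1.08%, with centring 0.414% and with the replicate block alone 1.07%. Members with an unadjusted p under 0.05, which were 4, were 2 with a minimum mean of 1 CPM. Members with separate groups, 1, were 2 with libraries centred on their median, 3 with GC content and length removed with or without the block, 5 without both libraries numbered 4, and 2 to 4 on leaving out 1 library. The share of all genes with separate groups was 3.78% in the reported fit, 4.13% with centring, 7.09% with GC content and length removed, 13.8% without both libraries numbered 4, and 5.90% to 9.59% on leaving out 1 library. The median difference of the members was between -0.00422 and 0.0317 on leaving out 1 library, the highest without CML replicate 2. Called pathway genes, 1, were 0 with the minimum mean, with centring and with the replicate block, 4 with GC content and length removed, 3 with the block added to that, 2 without both libraries numbered 4, and 0 to 4 on leaving out 1 library (4 without control replicate 4). Those with an unadjusted p under 0.05, 5, were 3 with the minimum mean, 8 with GC content and length removed, 8 without both libraries numbered 4, and 3 to 8 on leaving out 1 library (3 without control replicate 1, 8 without control replicate 4). The share of all genes at that threshold was 7.66% in the reported fit, 6.96% with the minimum mean, 11.5% with GC content and length removed, 9.82% without both libraries numbered 4, and 6.71% to 10.9% on leaving out 1 library.

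Over all genes, 158 were called, against 73 with centring, 877 with GC content and length removed, 321 without both libraries numbered 4, and 20 (without CML replicate 2) to 690 (without control replicate 4) on leaving out 1 library. With centring, 46 were higher and 27 lower, against 119 and 39; with quantile normalization, 90 and 54; with GC content and length removed, 551 and 326.

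Whether the replicate numbers pair the libraries is not settled. Same-numbered libraries had correlations of their deviations of 0.199, -0.0303, -0.0645 and 0.334 for numbers 1 to 4. The mean between control and CML libraries of different numbers was -0.0362, and numbers 1 and 4 lay furthest above it. With the replicate block, 189 genes were called, and the adjusted p of STAT2 in limma was 0.224 with the same difference of -0.20.

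Leaving out 1 library gave log2 differences on both sides of 0 for 21 genes, with the ranges -0.0240 to 0.0161 for ADAR, -0.0200 to 0.0415 for CMPK2, -0.00339 to 0.0503 for IFI16, -0.0513 to 0.0406 for IFI27, -0.0470 to 0.0965 for IFI35, -0.0664 to 0.0456 for IFIH1, -0.00818 to 0.0928 for IFIT3, -0.0289 to 0.0556 for IFITM3, -0.12 to 0.12 for IRF7, -0.0416 to 0.0868 for IRF9, -0.12 to 0.11 for ISG15, -0.0286 to 0.0464 for JAK1, -0.0609 to 0.0219 for OAS2, -0.0491 to 0.0635 for OAS3, -0.0385 to 0.13 for OASL, -0.0616 to 0.00577 for PARP14, -0.00958 to 0.0930 for PARP9, -0.16 to 0.0272 for RSAD2, -0.0547 to 0.0700 for SAMD9L, -0.0271 to 0.0198 for SLFN5 and -0.0507 to 0.0113 for TRIM21. Values that changed sign with GC content and length removed, with or without the block, were -0.00519 for ADAR, -0.000246 for JAK1 and -0.0270 for SAMD9L. With centring they were -0.0195 for ADAR, -0.0156 for IFI27, -0.00646 for IFI35, -0.00544 for IFITM3, -0.0113 for JAK1, -0.0127 for OAS3 and -0.0195 for SAMD9L. With quantile normalization they were -0.0271 for ADAR, -0.0145 for IFI16, -0.00843 for IFI27, -0.0125 for IFITM3, -0.0157 for JAK1, -0.0119 for OAS3 and -0.00354 for SAMD9L. Without both libraries numbered 4 they were -0.00131 for BST2, -0.0477 for IFI27, -0.0385 for IRF7, -0.0499 for IRF9, 0.00125 for MAVS, 0.0228 for OAS2, 0.0763 for RSAD2, 0.0193 for SLFN5 and 0.00980 for TRIM21.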
